A study of Homo sapiens with 4 samples.

Results

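The genes described here are 38 genes of DNA replication and mitosis, out of 20045 named genes on the array. They were taken by gene symbol as every probe annotated to a listed gene. The first 18, from MCM2 to RRM2, act in S phase, and the other 20 act in mitosis. They had 53 probes in all, 26 for S phase and 27 for mitosis. L591, a cell line from Hodgkin lymphoma, was transfected with an empty pcDNA3 plasmid (mock) or with pcDNA3 carrying PDLIM2 transcript variant 2. PDLIM2 belongs to the PDZ-LIM protein family and is thought to act as a ubiquitin ligase on transcription factors. Both groups received 40 µg of the pcDNA3 construct and 10 µg of the GFP plasmid pEGFP-N3, and GFP-positive cells were sorted. There were 2 Illumina bead arrays per group, with the titles numbering them 1 and 2, and the time between transfection and harvest is not given in the labels used here. Values are log2 units per probe as deposited. Nothing in the labels states whether both arrays of a group come from separate cultures. The p-values therefore rest on the spread among these 4 samples only, and that spread may be technical.

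Cells copy their DNA in S phase and divide it in mitosis, and the genes for both steps are switched on in turn. The MCM2 to MCM7 proteins form the ring that unwinds DNA, and CDT1 and CDC6 load that ring onto origins. Genes of S phase are typically driven by E2F factors, while genes of mitosis are typically held off by the DREAM complex early in the cycle and driven by B-MYB and FOXM1 later, through an element named CHR. Levels of these transcripts in pooled RNA of sorted cells follow both the share of cells in each phase and the amount of RNA per cell. These cannot be told apart in these samples.

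The promoters of the S phase and the mitosis genes differed in the elements they carried. RefSeq (GRCh38.p14) gave windows of 300 bases (250 before to 50 after a start) for 31 of the 38 genes, 40 windows in all because 7 genes had several. The letters TTTCCCGC or TTTGGCGC, forms of the E2F site, lay on either strand in 9 of 21 S phase windows (42.9%) and in 0 of 19 mitosis windows, against 2.27% of all 35116 promoter windows. The letters TTTGAA or TTTAAA, forms of the CHR element, lay in 15 of 19 mitosis windows (78.9%) and 3 of 21 S phase windows (14.3%), against 24% of all windows. CCAAT, the box bound by NF-Y, lay in 17 mitosis windows (89.5%) and 14 S phase windows (66.7%), against 34.6%. Windows of the same gene can overlap, a match is not a bound site, and 1 pair of different motifs shared bases. The stretches below show what each kind of promoter carries, in genes whose values follow, with the match in capitals, 5′ to 3′ on the gene's strand. The MCM6, MCM7, CDT1 and GINS2 stretches show E2F letters (reversed in MCM7, CDT1 and GINS2), and the other 5 show CHR letters.
MCM6: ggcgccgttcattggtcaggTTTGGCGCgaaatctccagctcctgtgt
MCM7: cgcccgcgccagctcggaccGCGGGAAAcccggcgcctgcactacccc
CDT1: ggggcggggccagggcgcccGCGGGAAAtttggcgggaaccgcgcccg
GINS2: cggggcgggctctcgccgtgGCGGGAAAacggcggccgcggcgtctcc
CCNB2: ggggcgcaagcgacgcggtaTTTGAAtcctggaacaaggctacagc
CDC20: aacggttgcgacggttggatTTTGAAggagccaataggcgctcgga
BUB1B: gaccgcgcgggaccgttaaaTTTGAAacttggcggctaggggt
MKI67: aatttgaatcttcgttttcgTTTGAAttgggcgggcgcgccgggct
CENPE: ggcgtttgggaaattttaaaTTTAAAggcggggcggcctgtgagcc
In GRCh38.p14 these lie at chr2:135876506-135876553 (MCM6, minus strand), chr7:100101557-100101604 (MCM7, minus), chr16:88803734-88803781 (CDT1, plus) and chr16:85688958-85689005 (GINS2, minus). The CHR stretches lie at chr15:59105097-59105142 (CCNB2, plus), chr1:43358896-43358941 (CDC20, plus), chr15:40161026-40161068 (BUB1B, plus), chr10:128126427-128126472 (MKI67, minus) and chr4:103198380-103198425 (CENPE, minus). The capitalized E2F letters began 90, 187, 35 and 31 bases before a start of MCM6, MCM7, CDT1 and GINS2. For MCM7 this was 1 of several starts, and MCM6 had another E2F match 152 bases before its start. The capitalized CHR letters began 29, 65, 23, 29 and 62 bases before the start of CCNB2, CDC20, BUB1B, MKI67 and CENPE. The MKI67 and CENPE stretches also hold another CHR match in small letters, 47 and 68 bases before the start. Some of these windows held further matches that are not shown.

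The arrays shared their median within 6.006 to 6.007 log2 units. The transfected gene gave no check of the labels. The first PDLIM2 probe read 5.50 and 5.15 in the mock arrays and 5.76 and 5.52 in the PDLIM2 arrays, and the other read 5.48 and 5.62 in the mock arrays and 5.24 and 5.27 in the PDLIM2 arrays. Both were dim and went in opposite directions (0.31, SE 0.18, and -0.29, SE 0.15), and whether either lies in the transfected cDNA was not determined here. Tested probes had a mean over the 4 arrays above the median of all probes (5.99). All 10 Hodgkin cell markers had a tested probe, among them TNFRSF8 (CD30) and CCL22, as did 6 of 8 B cell markers. TNFRSF8 was dim, at 6.86 and 6.61 in the mock arrays and 7.05 and 6.44 in the PDLIM2 arrays. Among T and NK cell markers 3 of 12 were tested: CD2, GZMB and NKG7. CD2 was bright, at 11.59 and 12.17 in the mock arrays and 11.69 and 11.98 in the PDLIM2 arrays. Every probe of CD3D, CD3E and CD3G was under the threshold. Among myeloid markers 5 of 10 were tested (CD14, CSF1R, FCGR3A, ITGAM and CD68), with LYZ and CD163 under the threshold. PAX5, a defining B cell factor, was under it too. The mean mock level of the members' brightest tested probes ran from 6.28 (CDC6) to 13.32 (MCM7), levels that are not compared between probes.

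None of the replication or mitosis genes was called different in the cells given PDLIM2. Of the 38 genes, 37 had a tested probe, and cyclin E2 (CCNE2), which pairs with CDK2 at S phase entry, did not, at 5.40 and 5.38 in the mock arrays and 5.54 and 5.30 in the PDLIM2 arrays. The brightest tested probe of each gene is used below. Limma called 0 of 23615 probes higher (0%) and 0 lower (0%) at an adjusted p under 0.05, and the adjusted p of each tested member was 0.9998. An unadjusted p under 0.05 was reached by 2 of the 37 members, and by 3.34% of all 12417 tested genes. These were MCM5, with a higher value (1.47% of all genes), and CDT1, with a lower one (1.88%). Counted by probe it was 3 of the members' 51 tested probes, against 2.82% of all tested probes. No member reached a 1.5-fold difference with its brightest probe, against 2.02% of all tested genes. The groups did not overlap for some members, with the PDLIM2 arrays on the higher side for 7 and on the lower side for 5, against 17.7% and 12.3% of all genes. The 95% interval of the difference reached past 1.5-fold for 20 of the 37 members, so for these the intervals include a change of that size.

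**Figure D1:**
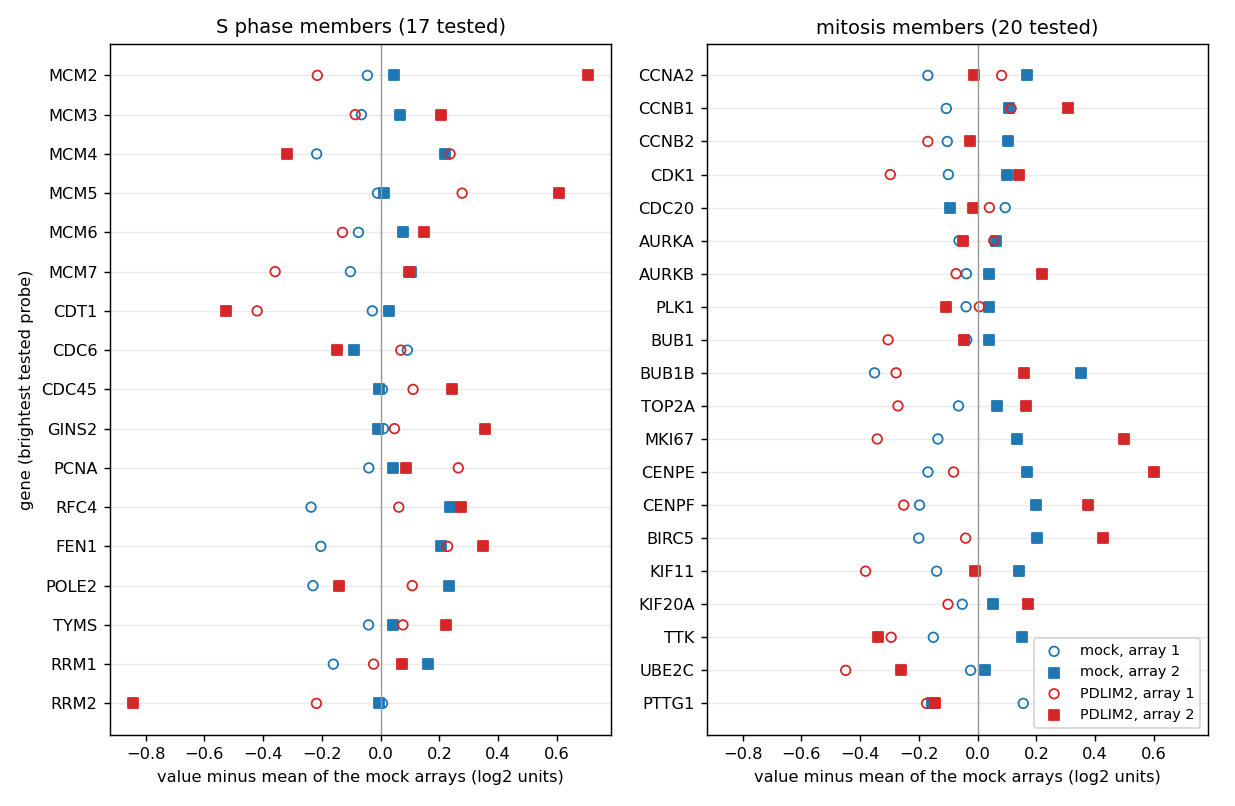
Value of each tested gene on each of the 4 arrays, as its difference from the mean of the 2 mock arrays in log2 units, for S phase (left) and mitosis (right); blue is mock, red is PDLIM2, open circles are array 1 and filled squares array 2. CDT1 and RRM2 had both red points below both blue ones, and MCM5 both above, while most mitosis genes had each square to the right of the circle of the same colour.

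Among the helicase subunits, MCM5 stood out with higher values in both PDLIM2 arrays. MCM5 read 11.11 and 11.14 in mock arrays 1 and 2, and 11.40 and 11.73 in PDLIM2 arrays 1 and 2. The groups did not overlap, and the difference was 0.44 log2 units (SE 0.19, 95% interval 0.0032 to 0.88, n = 2 each, limma, unadjusted p = 0.0487), or 1.36-fold. It was 0.28 without PDLIM2 array 2 and 0.61 without PDLIM2 array 1. The partner subunit MCM2 read 10.75 and 10.84 in the mock arrays and 10.58 and 11.50 in the PDLIM2 arrays. The high value was PDLIM2 array 2 alone, and the difference of 0.24 (SE 0.30) became -0.22 without that array. MCM6 showed the smallest S phase difference, with 12.81 and 12.96 in the mock arrays and 12.76 and 13.03 in the PDLIM2 arrays (0.0090, SE 0.18, 95% interval -0.43 to 0.44). MCM3 differed by 0.059 with its brighter probe and by 0.33 with its dimmer one, neither separating the groups.

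MCM4 and MCM7 behaved differently from probe to probe or pair to pair. The brighter MCM4 probe read 11.18 and 11.61 in the mock arrays and 11.63 and 11.08 in the PDLIM2 arrays, so its difference was 0.45 for the arrays with number 1 and -0.54 for those with number 2. The dimmer MCM4 probe went the same way, by 0.24 and -0.81. PDLIM2 array 2 was thus the array in which MCM2 was highest and the dimmer MCM4 probe lowest. MCM7 had 3 tested probes, all with lower values in the PDLIM2 arrays. The brightest read 13.22 and 13.42 in the mock arrays and 12.96 and 13.42 in the PDLIM2 arrays (difference -0.13, SE 0.21). The probe ILMN_1704702, annotated to another MCM7 transcript, read 9.78, 9.56 and 9.57 in mock array 1, mock array 2 and PDLIM2 array 1, and 7.62 in PDLIM2 array 2. That array alone was low, and the probe, the only tested member probe past 1.5-fold, differed by -1.08 (SE 0.55, 95% interval -2.36 to 0.21). The third probe differed by -0.39 (SE 0.19), with groups that did not overlap.

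**Figure D2:**
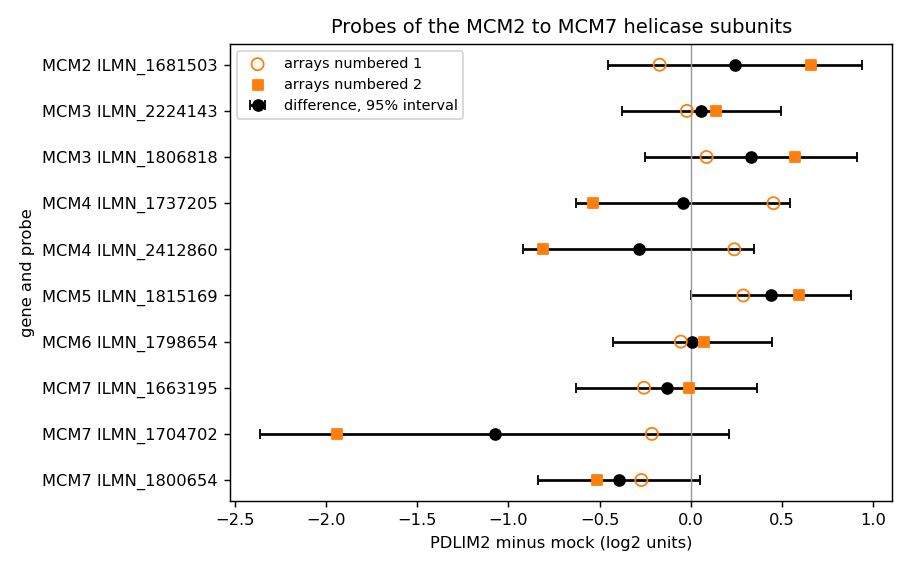
PDLIM2 minus mock in log2 units for the 10 tested probes of MCM2 to MCM7, as the limma difference with its 95% interval (black) and within the arrays numbered 1 (open orange circles) and 2 (filled orange squares). MCM5 is the probe whose interval lies just above 0, and the MCM7 probe ILMN_1704702 has the widest interval and differs most between the array numbers (-0.21 and -1.94).

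Of the genes that load and activate the helicase, CDT1 had lower values in the PDLIM2 arrays and the activating subunits had slightly higher ones. CDT1, a licensing factor destroyed once replication starts, read 9.62 and 9.68 in the mock arrays and 9.23 and 9.12 in the PDLIM2 arrays. Both PDLIM2 values lay below both mock values, with differences of -0.39 and -0.56 within the array numbers. The difference was -0.47 (SE 0.17, 95% interval -0.87 to -0.080, unadjusted p = 0.0249 in limma), or 0.720 times the mock level, and it ranged from -0.53 to -0.42 with any array left out. CDC6, the other loading factor, differed by -0.040 (SE 0.18). CDC45 and the GINS subunit gene GINS2, which complete the active helicase, differed by 0.18 (SE 0.17) and 0.20 (SE 0.18), and neither overlapped between the groups.

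Genes that act at the fork had values mostly above the mock level, with probes that did not always move alike. FEN1, a nuclease that trims the ends of lagging strand fragments, read 11.67 and 12.08 in the mock arrays and 12.10 and 12.22 in the PDLIM2 arrays. The groups stood apart by the narrow gap between mock array 2 and PDLIM2 array 1, and the difference of 0.29 (SE 0.20) was 0.083 without mock array 1 and 0.49 without mock array 2. Its dimmer probe differed by -0.099 (SE 0.17), also without overlap and in the other direction. RFC4, a subunit of the clamp loader, read 11.18 and 11.65 in the mock arrays and 11.47 and 11.69 in the PDLIM2 arrays, which overlap (0.17, SE 0.21). Its second probe was above the mock level in both PDLIM2 arrays (0.46, SE 0.19, unadjusted p = 0.0421 in limma). The sliding clamp gene PCNA differed by 0.18 with its brightest probe, without overlap, and by -0.19 with the next. POLE2, a subunit of the leading strand polymerase, read 9.98 and 10.44 in the mock arrays and 10.32 and 10.07 in the PDLIM2 arrays (-0.017, SE 0.22, 95% interval -0.52 to 0.49).

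Of the genes that supply nucleotides, RRM2 had the lower values. RRM2, the regulated subunit of ribonucleotide reductase, read 10.78 and 10.77 in the mock arrays and 10.56 and 9.93 in the PDLIM2 arrays. Both PDLIM2 values were below both mock values, and PDLIM2 array 2 was the lower one. The difference was -0.53 (SE 0.23, 95% interval -1.08 to 0.019), or 0.692 times the mock level. Without PDLIM2 array 1 it was -0.84 and was called (limma, adjusted p = 0.0354), and without PDLIM2 array 2 it was -0.22 and was not. The first of these is a fit that called 163 probes higher and 647 lower, and in which the lone PDLIM2 array is assumed to vary like the mock arrays. RRM1, the large subunit of that enzyme, differed by 0.023 (SE 0.19), and TYMS, which makes thymidylate, by 0.15 (SE 0.17) without overlap.

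Mitosis genes showed smaller differences between the group means than S phase genes, as a description with no test. The median absolute difference was 0.078 log2 units over the 20 mitosis genes, 0.17 over the 17 tested S phase genes and 0.13 over all tested genes. Within array number 1 it was 0.15 over mitosis genes, 0.22 over S phase genes and 0.14 over all tested genes. Within number 2 it was 0.16, 0.18 and 0.19. For 12 of the 20 mitosis genes and 6 of the 17 S phase genes the sign differed between the array numbers. None of the 20 had an unadjusted p under 0.05. The mitotic cyclin gene CCNB1 read 9.76 and 9.97 in the mock arrays and 9.98 and 10.17 in the PDLIM2 arrays, so the groups were barely apart (difference 0.21, SE 0.18, and 0.10 to 0.32 with an array left out). CCNA2, CCNB2 and CDK1, the cyclins and the kinase they activate, differed by 0.035, -0.098 and -0.078 (SE 0.19, 0.18 and 0.21).

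Kinases of spindle assembly and of its checkpoint had small differences in both directions. TTK, the kinase that starts checkpoint signalling at kinetochores, read 10.22 and 10.52 in the mock arrays and 10.07 and 10.03 in the PDLIM2 arrays. Its groups did not overlap (-0.32, SE 0.18, 95% interval -0.75 to 0.11, and -0.47 to -0.17 with an array left out). BUB1, another checkpoint kinase, differed by -0.18 (SE 0.18), also without overlap. AURKA, a spindle pole kinase, read 11.34 and 11.47 in the mock arrays and 11.46 and 11.35 in the PDLIM2 arrays, the smallest difference of all members (0.0023, SE 0.17, 95% interval -0.40 to 0.40), while its second probe differed by -0.20. AURKB and BIRC5, both of the chromosomal passenger complex, differed by 0.073 and 0.19, and PLK1, a kinase of mitotic entry, by -0.050.

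Of the genes that trigger anaphase, UBE2C had lower values in both PDLIM2 arrays, with its bright probe only. UBE2C, the ubiquitin-conjugating enzyme of the anaphase-promoting complex, read 12.52 and 12.57 in the mock arrays and 12.09 and 12.28 in the PDLIM2 arrays. The groups did not overlap, with a difference of -0.35 (SE 0.17, 95% interval -0.76 to 0.051) or 0.782 times the mock level. Its dim probe, annotated to another transcript, differed by 0.13 (SE 0.19) with overlapping groups. CDC20, an activator of that complex, read 11.82 and 11.63 in the mock arrays and 11.77 and 11.71 in the PDLIM2 arrays (0.013, SE 0.17), and the securin gene PTTG1 differed by -0.16 (SE 0.18). Tested probes of the same gene disagreed in sign for 5 of the 13 members that had several: UBE2C, AURKA, FEN1, KIF11 and PCNA.

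Genes of motors, kinetochores and chromosome structure overlapped between the groups without exception. CENPE, a kinetochore motor, read 10.15 and 10.49 in the mock arrays and 10.24 and 10.92 in the PDLIM2 arrays (0.26, SE 0.26). CENPF, a kinetochore protein, differed by 0.062, and the spindle motors KIF11 and KIF20A by -0.19 and 0.036. The proliferation marker MKI67 read 7.56 and 7.83 in the mock arrays and 7.35 and 8.19 in the PDLIM2 arrays (0.078, SE 0.29, 95% interval -0.60 to 0.75), with the lowest and the highest value both in the PDLIM2 group. TOP2A, which untangles chromosomes, differed by -0.053 (SE 0.20).

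Set against each other, the S phase and mitosis genes were close. The median of PDLIM2 minus mock was 0.059 log2 units over the 17 tested S phase genes and -0.024 over the 20 mitosis genes, a gap of 0.083, with 0.025 over all tested genes. Values were higher in 11 and lower in 6 S phase genes, and higher in 10 and lower in 10 mitosis genes, against 55.5% higher over all genes. Taken by array number, the gap was 0.16 for number 1 and 0.020 for number 2. PDLIM2 minus mock had the same sign within both numbers for 11 S phase and 8 mitosis genes, against 55.4% of all genes. S phase genes spread more widely for array number 2 (SD over genes 0.40) than for number 1 (SD 0.25), as did all tested genes (0.34 and 0.23). MCM2 and MCM5 at the upper end and RRM2, CDT1 and MCM4 at the lower end made up that range, from 0.66 to -0.84. These gene-to-gene spreads are descriptions, since genes are not replicates.

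**Figure D3:**
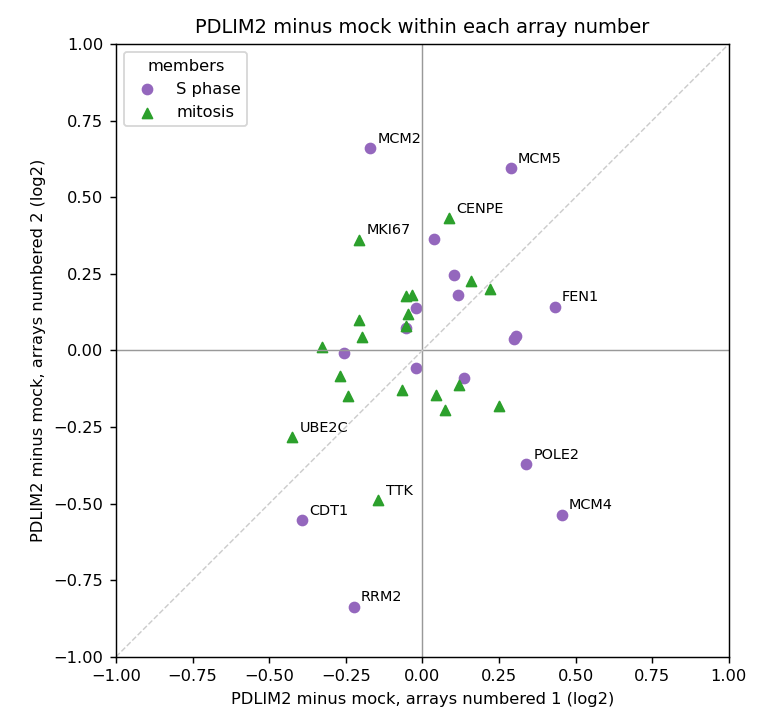
PDLIM2 minus mock in log2 units for array number 1 (x axis) and array number 2 (y axis) for each tested S phase gene (purple circles) and mitosis gene (green triangles); the dashed line marks equal values. MCM5, FEN1 and CCNB1 lie above 0 on both axes, CDT1, RRM2, UBE2C and TTK below 0 on both, and MCM4 and POLE2 in opposite directions.

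Most mitosis genes had higher values in array 2 than in array 1 of the same group. Values were higher in array 2 than in array 1 in both groups for 14 of the 20 mitosis genes and 9 of the 17 S phase genes, against 31.5% of all genes. They were lower in array 2 in both groups for 1 mitosis gene and 2 S phase genes, against 32.8% of all genes. The median of array 2 minus array 1 over mitosis genes was 0.20 in the mock and 0.27 in the PDLIM2 group, and over S phase genes 0.091 and 0.13, while all tested genes had -0.022 and 0.017. For the mean of both groups, the median was 0.14 over S phase genes and 0.19 over mitosis genes, a gap of -0.043. Taken without sign, the median was 0.20 over S phase genes, 0.19 over mitosis genes and 0.17 over all tested genes. What the array number stands for is not given in the labels, so it was not tested. The mock and PDLIM2 differences share no array, but deviations of same-numbered arrays correlated across all tested probes (r = 0.476). With its brightest probe, no member passed 1.5-fold in the mean with the same sign in both groups. Over all genes 2.13% did so higher and 2.11% lower. The dimmer MCM7 probe ILMN_1704702 passed it, with a mean of -1.08.

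All 6 genes of motors, kinetochores and chromosome structure were higher in array 2 in both groups. The checkpoint gene BUB1B read 8.83 and 9.53 in mock arrays 1 and 2 and 8.90 and 9.34 in PDLIM2 arrays 1 and 2, a mean difference of 0.57. MKI67 differed by 0.27 in the mock and 0.84 in the PDLIM2 group, CENPE by 0.34 and 0.68, and CENPF, at 9.62 and 10.02 in the mock and 9.57 and 10.19 in the PDLIM2 arrays, by 0.40 and 0.63. Of the 6 mitosis genes that did not follow this, CDC20 was lower in array 2 in both groups (-0.19 and -0.055). PTTG1 was lower in the mock group only (-0.31 and 0.028), while its dimmer probe had 0.14 and -0.0033. CCNA2, AURKA, PLK1 and TTK were higher in the mock group (0.079 to 0.34) and lower in the PDLIM2 group (-0.11 to -0.044). The second AURKA probe was higher in both (0.0035 and 0.21). Among S phase genes, MCM2 differed by 0.091 and 0.92, RFC4 by 0.47 and 0.21 and MCM7 by 0.21 and 0.46. RRM2 had -0.012 and -0.62. Dimmer probes did not always go the same way. The MCM7 probe ILMN_1704702 had -0.22 and -1.95 and the third MCM7 probe 0.33 and 0.089. The second RFC4 probe had 0.33 and -0.0042. MCM4 and POLE2 were higher in array 2 in the mock (0.44 and 0.46) and lower in the PDLIM2 group (-0.55 and -0.25). Some cell type markers moved with the array number as well. All 5 tested myeloid markers were lower in array 2 in both groups, against 32.8% of all genes. ITGAM (5.99 and 5.92 in mock arrays 1 and 2), FCGR3A (6.36 and 6.15) and CD14 (6.67 and 6.34) lay near the threshold of 5.99. On the linear scale the 5 myeloid markers summed to 838 and 669 in mock arrays 1 and 2. In PDLIM2 arrays 1 and 2 the sum was 750 and 583. Of the 10 Hodgkin cell markers 5 were lower in array 2 in both groups and 0 higher in both (31.5% of all genes). Their median of array 2 minus array 1 was -0.23 in the mock and -0.16 in the PDLIM2 group. The summed intensity of the 10 Hodgkin cell markers was 70521 and 61714 in the mock and 65990 and 70404 in the PDLIM2 arrays, and that of the 3 tested T and NK cell markers was 3442 and 4868, and 3585 and 4331. That last sum is mostly CD2, higher in array 2 in both groups (0.58 and 0.29), while NKG7 was lower in both (-0.17 and -0.082) and GZMB lower in the mock and higher in the PDLIM2 group (-0.80 and 0.30). Their part in the result was not tested.

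**Figure D4:**
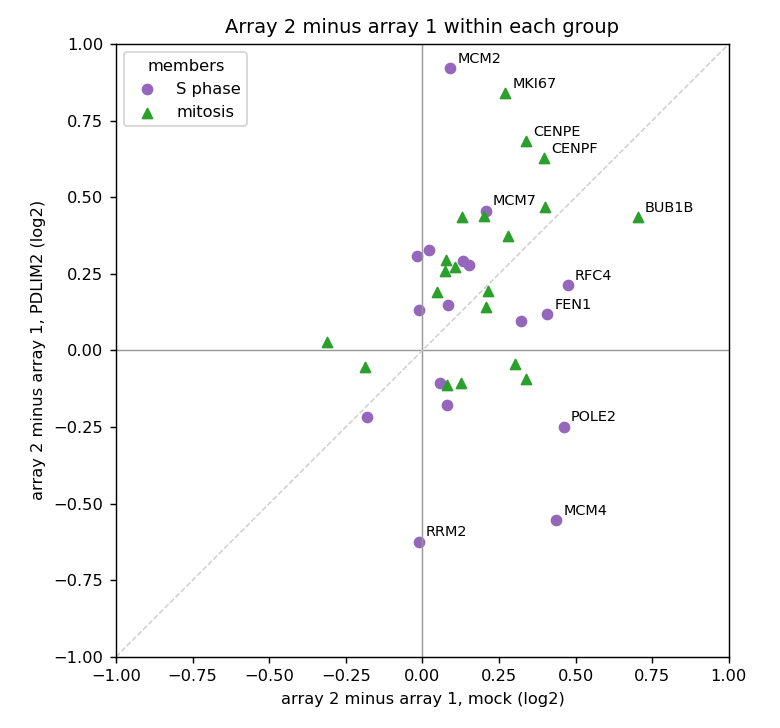
Array 2 minus array 1 in log2 units within the mock group (x axis) and within the PDLIM2 group (y axis) for each tested S phase gene (purple circles) and mitosis gene (green triangles); the dashed line marks equal values. Mitosis genes gather in the upper right, with BUB1B, MKI67, CENPE and CENPF farthest out, while MCM4 and POLE2 lie at the lower right.

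Other genes of the same processes, from lists of further replication genes, mitosis genes and transcription regulators, gave 0 calls in limma as well. Of 53 tested replication genes (of 54 listed) 34 had higher and 19 lower values (median 0.100), and of 56 mitosis genes 25 and 31 (median -0.018). The share with higher values over all tested genes was 55.5%. RECQL4, a helicase of replication initiation, read 7.80 and 8.04 in the mock arrays and 8.16 and 9.10 in the PDLIM2 arrays (0.71, SE 0.30). The kinase gene CDC7, which fires origins, differed by 0.50 (SE 0.25), DTL, part of the ligase that destroys CDT1, by 0.48 (SE 0.22), and ORC2, a subunit of the origin recognition complex, by 0.41 (SE 0.17). Both PDLIM2 values exceeded both mock values for 14 of the 53 replication genes, and lay below them for 1, against the 17.7% and 12.3% of all genes given above. SGO1, which protects sister chromatid cohesion, differed by -0.45 (SE 0.26), and the separase gene ESPL1, the motor gene KIF4A and the condensin gene NCAPD2 by 0.42, 0.33 and 0.31 (SE 0.40, 0.28 and 0.29).

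Regulators of cell cycle transcription leaned to lower values, with 15 of 23 tested genes lower and 8 higher (median -0.14). Over all tested genes 55.5% had higher values (median 0.025). LIN52, a subunit of the MuvB core shared by DREAM and B-MYB complexes, read 8.54 and 8.11 in the mock arrays and 8.15 and 6.92 in the PDLIM2 arrays, where PDLIM2 array 2 stood far below the others (-0.79, SE 0.38). RBBP4, a histone-binding subunit of that core, differed by -0.65 (SE 0.22) and E2F7, a repressive E2F factor, by -0.47 (SE 0.19). E2F3, an activating E2F factor, differed by -0.46 (SE 0.31), with -0.046 for array number 1 and -0.88 for number 2. FOXM1 and MYBL2, the gene for B-MYB, went the other way, by 0.41 (SE 0.28) and 0.34 (SE 0.26). Both were lower for array number 1 (-0.053 and -0.18) and higher for number 2 (0.87 and 0.85). Both PDLIM2 values lay below both mock values for 8 of the 23, against 12.3% of all genes, and 0 of the 23 were called. Median deviations from each gene's mean were 0.049 and 0.10 in mock arrays 1 and 2 and -0.057 and -0.10 in PDLIM2 arrays 1 and 2 for the regulators. For the further mitosis genes they were -0.078 and 0.090 in the mock and -0.16 and 0.13 in the PDLIM2 arrays, the same order by array number as the mitosis genes above.

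**Figure D5:**
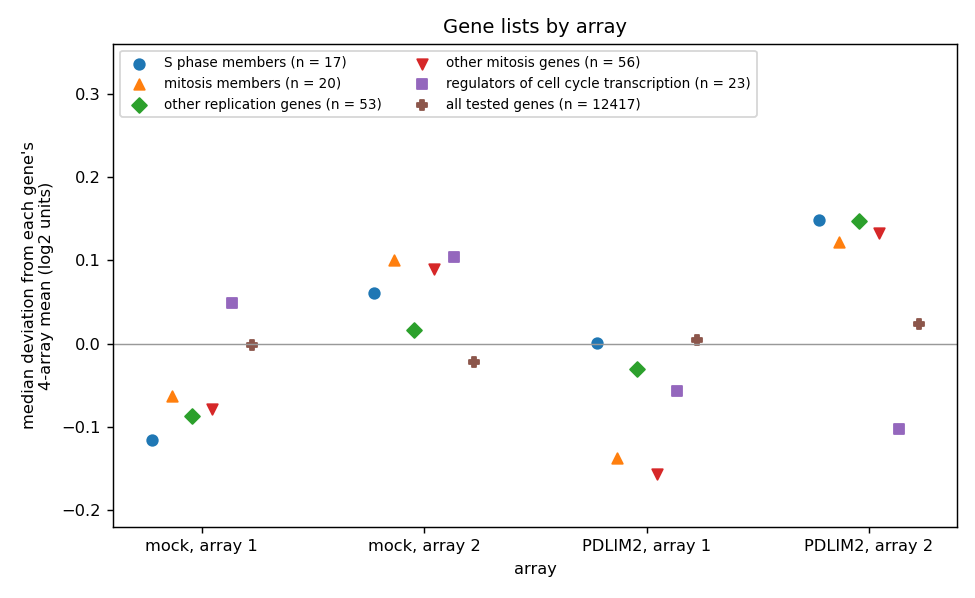
Median over the genes of each list of the deviation from that gene's mean over the 4 arrays, in log2 units, on each array. Both mitosis lists and both replication lists lie higher in array 2 than in array 1 of each group, the regulators lie lower in both PDLIM2 arrays than in both mock arrays, and all tested genes stay near 0.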

How the data were processed

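The values are log2 intensities deposited by the authors for Illumina bead arrays of biotin-labelled RNA. How they were scanned, background-corrected and normalized is not given in the sources used here. Detection p-values were not used, which leaves the distance of dim probes from background unknown. Values were used as deposited, since the arrays share their quartiles within 0.05 log2 units. Of 47231 probes 47230 were complete. GEO's platform annotation gave 30112 of these 1 symbol, 8 several and 17110 none. Symbols were updated through their Entrez ID with RefSeq. PDLIM2 minus mock was fitted with limma 3.58.1 in R 4.3.3 on 23615 probes, those with a mean above the median of all probes, without trend, robust prior or array number (2 residual and 5.10 prior degrees of freedom). Tests are two-sided with Benjamini-Hochberg adjustment over all tested probes. Each gene is represented by its brightest tested probe. Lists are described by counts and medians, and array 2 minus array 1 by values, with no test. The fit was also run on simulated arrays with noise drawn separately for each array. That setting lacks the correlation of same-numbered arrays given below, so no conclusion is drawn from it. The members and lists were chosen with earlier results of these data known. All 38 members may be named. Values per array are given, in each class, for the 4 members that differ most by PDLIM2, the 4 that differ most by array number and the 2 that differ least by PDLIM2, with others added after their values were seen (MCM4, further MCM7 probes, CCNE2). Of each further list the 4 genes that differ most are named, with FOXM1 and MYBL2 added after their values were seen. The alternatives changed the filter (none, or the 75th percentile), the scaling (quantile or median), the offset (50), the variance prior (trend or robust), the block (array number), the probes (mean per gene) or the arrays (leaving out each). The number of arrays limits the precision.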

Additional observations from a re-analysis of the deposited data

How the results depend on the processing

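Counts of probes and members called stayed at 0 with the filter off or at the 75th percentile, with quantile or median scaling, with the offset of 50, and with limma-trend or the robust prior. With the replicate block 1 probe was called lower, 0 higher and 0 members. What same-numbered arrays share is not stated in the labels. Their deviations correlated across probes (r = 0.476), and the main fit leaves the array number out. With an array left out, which leaves 1 array alone in its group and assumed to vary like the others, 0 to 163 probes were called higher, 0 to 647 lower and 0 to 1 members (RRM2, without PDLIM2 array 1, where the probe counts were the highest too). Without PDLIM2 array 2 the counts were 16 and 29. With an array left out the S phase median ranged from -0.0067 to 0.18, the mitosis median from -0.17 to 0.067 and their gap from 0.081 to 0.23. With the mean over all tested probes of a gene, the mean of array 2 minus array 1 over both groups had a median of 0.11 over S phase genes in place of 0.14, and a gap to mitosis genes of -0.079 in place of -0.043. Under the other alternatives run, these medians moved by less than the replicate spread. Of 18 named members, 0 changed sign with the filter off, quantile or median scaling, the offset or the replicate block, and 11 did with an array left out. The other alternatives were not run for single members, and 5 members have probes of opposite sign, as given above. The ranges of the 11 were -0.22 to 0.71 (MCM2), -0.13 to 0.15 (MCM6), -0.36 to 0.096 (MCM7), -0.070 to 0.40 (RFC4), -0.25 to 0.21 (POLE2), -0.081 to 0.11 (CDC20), -0.061 to 0.066 (AURKA), -0.41 to 0.29 (BUB1B), -0.34 to 0.50 (MKI67), -0.082 to 0.60 (CENPE) and -0.25 to 0.38 (CENPF). For all of these, the cause was not tested. Detection values were not used, so what signal over background limits is unknown.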
